A study of Homo sapiens with 2 samples.

Results

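The genes described here encode collagens, laminins, the lysyl oxidases that crosslink collagen, and the matrix glycoproteins periostin (POSTN), tenascin C (TNC) and fibronectin (FN1). They were chosen by symbol: COL, a number, A and a number, or LAMA, LAMB or LAMC and a number, or LOX, LOXL1 to LOXL4, POSTN, TNC and FN1, with a log ratio at 6 h or 3 h. Of 64 such symbols in the RefSeq gene table, 52 had a probe in the array annotation and 41 had a value, out of 11057 named genes with a value. The 41 were 24 collagens, 10 laminins, 4 lysyl oxidases and 3 glycoproteins. The 6 h array gave a value for 40 of them and the 3 h array for 39, with 38 shared.

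Dual-colour arrays compared 293T cells given 10 µM Y27632 for 6 h, and 293T cells given 10 µM Y27632 for 3 h, with untreated 293T cells labelled as 0 h, on 1 array per time. 293T is a human embryonic kidney line that carries a viral large T antigen, and all cells were grown in Dulbecco's modified Eagle medium with fetal bovine serum. Y27632 inhibits ROCK1 and ROCK2, kinases that drive actomyosin contraction. The titles of both arrays name the control and a time and not the inhibitor, so the treatment is taken from the source name and agent of the Cy3 channel. The treated cells carried Cy3 and the untreated cells Cy5 on both arrays, with no dye swap, and no vehicle is named for the untreated cells. An effect of the inhibitor cannot be told apart from one of handling or of the dye, nor can time be told apart from array. The deposited value is 1 log ratio per probe. Base 2 was assumed from the spread of the values, and the sources used here do not give the numerator. Signs are those of the deposited ratio: positive means higher in treated cells if treated is the numerator, and lower if untreated is. A ratio holds no level, so the labelled cell type could not be checked against its markers.

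Collagens are triple helices of α chains. Fibrillar collagens form the cables of connective tissue, whereas collagen IV and the laminins, each a trimer of an α, a β and a γ chain, assemble the sheets of basement membranes that underlie epithelia, including those of the kidney. Lysyl oxidases oxidise lysines in collagen and elastin, which starts the covalent crosslinks that stiffen a matrix. Cells pull on this matrix through integrins and actomyosin, the contractile machinery on which ROCK acts.

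No gene of the group reached a 2-fold difference, which is 1 log unit, at either time or in the difference of the times. The share of all named genes that did was 1.43% at 6 h, 1.61% at 3 h and 1.2% for the difference. At 1.5-fold, which is 0.585 log2 units, 7 of 40 genes were past the size at 6 h, against 9.86% of all named genes, and 1 of 39 at 3 h, against 9.36%. The 7 at 6 h were POSTN, LAMB3, LOXL2 and LAMB1 on the positive side, where 5.63% of all genes lay, and COL9A2, COL26A1 and COL14A1 on the negative side, where 4.24% lay. The 1 at 3 h was COL6A2, on the negative side, where 4.49% of all genes lay, while none was on the positive side, where 4.88% lay. The median over the group was −0.03 at 6 h and −0.11 at 3 h, beside 0.02 for all named genes at each time. In these cells, fewer cells making a transcript and less transcript per cell cannot be told apart.

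The only error these arrays give is the disagreement between probes of a gene. The SD within genes, from 572 genes with several probes, was 0.33 on the 6 h array and 0.31 on the 3 h array. It does not cover the spread between cultures, which was not measured. Of the 41 genes, 38 rested on 1 measured probe. With 2 such SDs as a guide, 4 of 40 genes lay outside at 6 h (POSTN, LAMB3, LOXL2 and COL9A2) and 1 of 39 at 3 h (COL6A2). The share of all named genes outside was 6.79% at 6 h and 8.03% at 3 h.

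**Figure D1:**
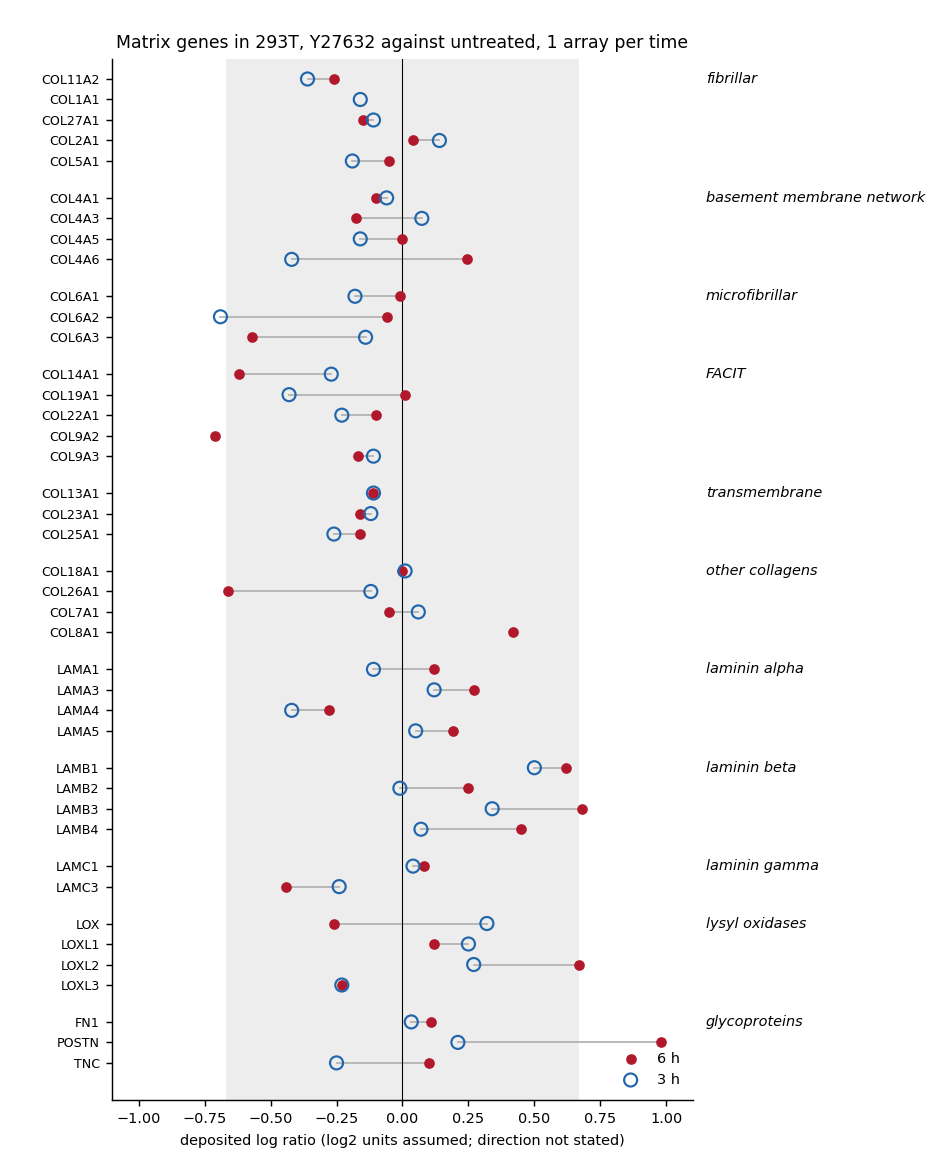
Deposited log ratios (x axis, log2 units assumed) of the 41 matrix genes by role, at 6 h (filled) and 3 h (open), 1 array each; the grey band spans 2 within-gene SDs of a 1-probe value at 6 h. POSTN at 0.98 lies farthest from 0, and the 4 laminin β chain genes lie between 0.25 and 0.68 at 6 h.

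Among the collagens, most log ratios were small and negative. At 6 h, 17 of 23 collagen genes were negative and 4 positive, with a median of −0.10, and at 3 h, 18 of 22 were negative and 4 positive, with a median of −0.15. Of all named genes, 51.5% were positive at 6 h and 51.3% at 3 h. Lists of endothelial, fibroblast and embryonic kidney markers, the last of the organ of origin of 293T, also lay mostly on the negative side. Of the 6 endothelial markers measured, 6 were negative at 6 h (range −0.55 to −0.06), and 5 were negative and 1 was at 0 at 3 h (range −0.72 to 0.00). Fibroblast markers were negative in 5 of 5 at 6 h (range −0.51 to −0.01) and in 3 of 5 at 3 h (range −0.76 to 0.28). Embryonic kidney markers were negative in 6 of 7 at each time, from −0.54 to 0.18 at 6 h and from −0.51 to 0.06 at 3 h. Their part in the collagen values was not tested.

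The plot of cumulative shares sets the collagens and laminins beside all genes. The collagen curve lies left of that of all genes over most of its course at both times, and the laminin curve lies mostly to the right of it at 6 h. No test was made, since a gene is not a replicate.

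**Figure D2:**
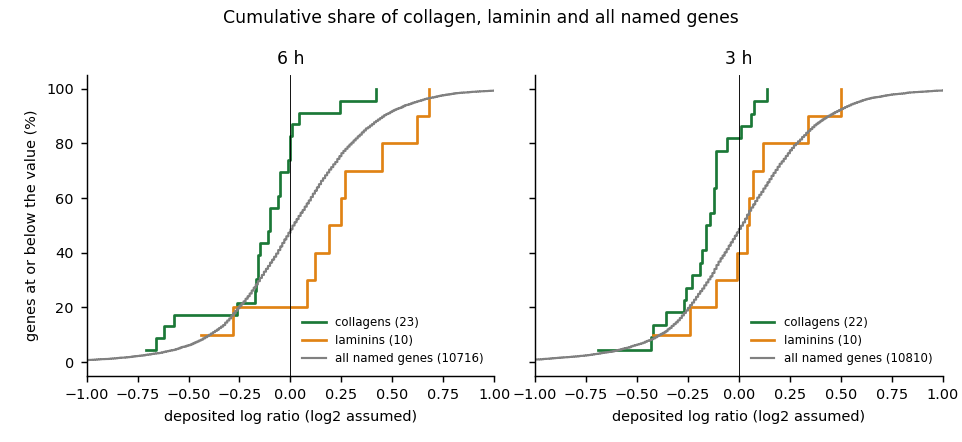
Share of genes (y axis, %) at or below each deposited log ratio (x axis, log2 units assumed, drawn from −1 to 1) for collagens, laminins and all named genes, at 6 h (left) and 3 h (right). At 6 h the median is −0.10 for the 23 collagens, 0.22 for the 10 laminins and 0.02 for all named genes.

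The fibrillar collagens, the cable-forming class, were represented by 5 genes. COL11A2, a minor fibril chain of cartilage, had −0.26 at 6 h and −0.36 at 3 h. COL5A1, a chain of the collagen that starts fibrils, had −0.05 and −0.19, and COL27A1 had −0.15 and −0.11. COL2A1, the main chain of cartilage fibrils, was the 1 fibrillar gene on the positive side, with 0.04 at 6 h and 0.14 at 3 h. COL1A1, the main chain of bone and skin collagen, had no value at 6 h and −0.16 at 3 h. None of these lay outside 2 within-gene SDs. The other fibrillar genes with an annotated probe, COL1A2, COL3A1 and COL11A1, had no value on either array.

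Collagen IV, the network of basement membranes, was measured through COL4A1, COL4A3, COL4A5 and COL4A6. COL4A1, a chain found in nearly all basement membranes, had −0.10 at 6 h and −0.06 at 3 h. COL4A5, a chain of the glomerular basement membrane, had 0.00 and −0.16. COL4A3, its partner there, had −0.175 at 6 h and 0.07 at 3 h, but its probes differed widely at 3 h. They read 0.87 (probe H300022504), 0.04 (opHsV0400002979) and −0.69 (opHsV0400004250), a range of 1.56. Of 74 genes with 3 measured probes at 3 h, 2 including COL4A3 had a range at least as wide. At 6 h the probe that was highest at 3 h had no value, and the remaining ones read −0.19 and −0.16. The difference between the times for COL4A3 was −0.25 over all probes and 0.15 over the probes measured on both arrays, so its sign depends on 1 probe.

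COL4A6 had gene means of 0.245 at 6 h and −0.42 at 3 h. Its probe H300016418 read 0.67 at 6 h and −0.51 at 3 h, while opHsV0400005788 read −0.18 and −0.33. The probes were on opposite sides of 0 at 6 h, and 40 of 511 genes with 2 measured probes had a range as wide as their 0.85. FN1, a fibrillar glycoprotein that binds integrins and collagen, was the third gene with several measured probes. Its probes read 0.04 (H300017847) and 0.18 (H300022190) at 6 h, and −0.25, 0.44 and −0.09 at 3 h, the last from H300021562, which had no value at 6 h.

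**Figure D3:**
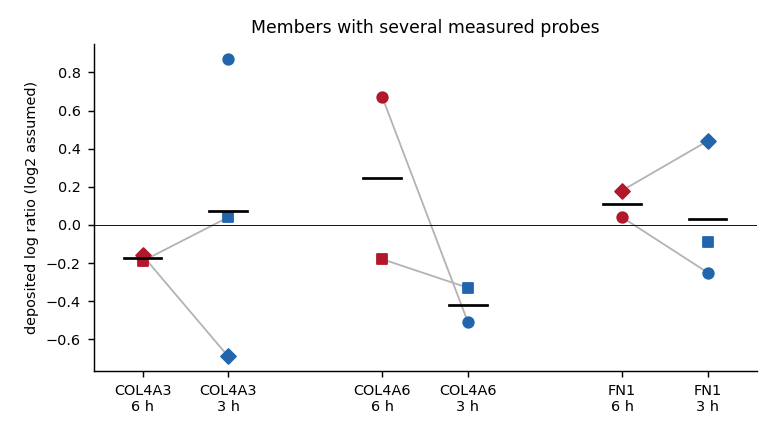
Deposited log ratios (y axis, log2 units assumed) of single probes of COL4A3, COL4A6 and FN1 at 6 h and 3 h; each marker shape is 1 probe within a gene, grey lines join its 2 times, and black bars are the gene means. The COL4A3 probes span −0.69 to 0.87 at 3 h.

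COL4A5 and COL4A6 are head-to-head neighbours on the X chromosome, with no gene between them in the RefSeq table. In RefSeq (GRCh38.p14), 379 bases lie between the first-listed starts of both genes, so the pair shares an upstream region. The 250 bases before the COL4A5 start (chrX:108439588-108439837, plus strand) are shown for this pair, with the 121 bases in capitals that also lie within 250 bases of the COL4A6 start.
COL4A5: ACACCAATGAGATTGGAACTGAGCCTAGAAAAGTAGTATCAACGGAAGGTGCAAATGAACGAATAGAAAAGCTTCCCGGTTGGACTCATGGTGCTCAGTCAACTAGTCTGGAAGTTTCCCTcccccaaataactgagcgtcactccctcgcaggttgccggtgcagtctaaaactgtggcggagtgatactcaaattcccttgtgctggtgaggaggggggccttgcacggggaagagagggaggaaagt
The ratios do not show from which start a transcript came. For this pair, COL4A6 and COL4A5 had ratios of 0.245 and 0.00 at 6 h and of −0.42 and −0.16 at 3 h. They differed by 0.245 at 6 h and by −0.26 at 3 h, each smaller than 2 SDs of such a difference, 0.813 at 6 h and 0.758 at 3 h. COL4A2 and COL4A4, the head-to-head partners of COL4A1 and COL4A3, had no probe in the annotation used here.

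Collagen VI forms beaded microfibrils from the products of COL6A1, COL6A2 and COL6A3. All 3 were negative at each time, and which chain lay farthest from 0 changed. COL6A3 had −0.57 at 6 h and −0.14 at 3 h. COL6A2 had −0.06 at 6 h and −0.69 at 3 h, the lowest value of the group at 3 h, ranking 324 from the bottom of 10810 genes. COL6A1, which neighbours COL6A2 on chromosome 21, stayed near 0 at −0.01 and −0.18. Differences between these chains on 1 array reached 0.56 at 6 h (COL6A1 minus COL6A3) and −0.55 at 3 h (COL6A2 minus COL6A3), against 2 SDs of 0.939 and 0.875 for a difference of 1-probe values.

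The FACIT collagens, which sit on the surface of fibrils, held the lowest value of the group at 6 h. COL9A2, a chain of cartilage collagen IX, had −0.71 at 6 h (1.64-fold), ranking 268 from the bottom of 10716 genes, and no value at 3 h. Its partner COL9A3 had −0.17 and −0.11. COL14A1, which binds fibrils in soft tissue, had −0.62 at 6 h and −0.27 at 3 h. COL19A1 had 0.01 at 6 h and −0.43 at 3 h, and COL22A1 had −0.10 and −0.23. Of the collagens outside these classes, COL26A1 (listed as EMID2) had −0.66 at 6 h and −0.12 at 3 h. COL8A1, a short-chain network collagen of vessels, had 0.42 at 6 h, the highest of the collagens at that time, and no value at 3 h. COL18A1, the source of endostatin, and COL7A1, of the anchoring fibrils under epithelia, lay between −0.05 and 0.06. The transmembrane collagen genes COL13A1, COL23A1 and COL25A1 lay between −0.26 and −0.11 at both times.

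Laminin genes lay mostly on the positive side at 6 h, with 8 of 10 positive, a median of 0.22 and a range from −0.44 to 0.68. At 3 h, 6 of 10 were positive and the median was 0.045. LAMB3, LAMB1 and LAMB4, all β chain genes, stood highest at 6 h. LAMB3, the β chain of the laminin that anchors epidermal cells, had 0.68 at 6 h (1.60-fold) and 0.34 at 3 h. LAMB1, the β chain of most embryonic laminins, had 0.62 at 6 h (1.54-fold) and 0.5 at 3 h, the highest value of the group at 3 h. LAMB4 had 0.45 and 0.07, and LAMB2, the β chain of the glomerular basement membrane, had 0.25 and −0.01. In rank from the top, LAMB3 stood at 361 and LAMB1 at 495 of 10716 genes at 6 h. LAMB1 at 6 h and at 3 h lay within 2 within-gene SDs of 0, and LAMB3 at 6 h lay just beyond 2 SDs, 0.664.

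The α and γ chain genes ranged from −0.44 to 0.27 at 6 h and from −0.42 to 0.12 at 3 h. LAMA3, the partner of LAMB3, had 0.27 at 6 h and 0.12 at 3 h. LAMA5, the α chain of the mature kidney basement membrane, had 0.19 and 0.05, and LAMA1, its embryonic counterpart, had 0.12 and −0.11. LAMC1, the γ chain of most laminins, had 0.08 and 0.04. LAMA4, a chain of vessel and muscle laminins, and LAMC3 were on the negative side, with −0.28 and −0.44 at 6 h and −0.42 and −0.24 at 3 h. Among 16 pairs of chains known to join in 1 molecule, none differed by 2 probe SDs at 6 h. At 3 h, 1 of 15 pairs did: LAMA4 and LAMB1 differed by −0.92, against 0.875. The share of unrelated gene pairs past these limits is not given here, so these counts say little about the chains. LAMA2 had a probe and no value.

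LAMB1 and LAMB3 are the laminin genes past 1.5-fold at 6 h, and the 250 bases before their starts in RefSeq (GRCh38.p14, minus strand) are shown to compare their promoters. Capitals mark GGGCGG, the GC box, on either strand. LAMB1 spans chr7:108003162-108003411 and LAMB3, at its first-listed start, chr1:209652426-209652675.
LAMB1: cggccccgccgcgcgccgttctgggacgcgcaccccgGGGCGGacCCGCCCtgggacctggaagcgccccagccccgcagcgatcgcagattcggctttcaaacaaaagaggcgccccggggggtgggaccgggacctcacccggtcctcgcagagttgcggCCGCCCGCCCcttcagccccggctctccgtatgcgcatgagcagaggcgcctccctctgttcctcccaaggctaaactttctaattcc
LAMB3: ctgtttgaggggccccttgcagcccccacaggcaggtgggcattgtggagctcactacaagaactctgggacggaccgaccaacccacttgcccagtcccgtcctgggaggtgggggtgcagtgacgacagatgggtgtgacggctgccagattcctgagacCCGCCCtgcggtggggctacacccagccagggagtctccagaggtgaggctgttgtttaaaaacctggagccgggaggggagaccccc
LAMB1 has 4 GC boxes, of which those beginning 88 and 84 bases before the start overlap, and LAMB3 has 1, beginning 88 bases before it. The windows had a GC content of 70.4% in LAMB1 and 64% in LAMB3. LAMB2, also on the positive side at 6 h, has 1 GC box and LAMB4 none.

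The lysyl oxidases did not share a direction. LOXL2, which crosslinks collagen IV, had 0.67 at 6 h (1.59-fold), ranking 379 from the top of 10716 genes, and 0.27 at 3 h. LOX, the founding enzyme of the family, had −0.26 at 6 h and 0.32 at 3 h, on opposite sides of 0. LOXL1, which acts on elastic fibres, had 0.12 and 0.25, and LOXL3 had −0.23 at each time. LOXL4 had a probe and no value. All these enzymes rested on 1 probe each. Their values lay within 2 within-gene SDs of 0, except that LOXL2 at 6 h lay just beyond 2 SDs, 0.664.

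POSTN, a secreted protein that binds fibrillar collagen and tenascin C, had the highest value of the group. Its probe H300000923 read 0.98 at 6 h, a 1.97-fold difference just short of 2-fold, and 0.21 at 3 h. It ranked 79 from the top of 10716 genes at 6 h and 2876 of 10810 at 3 h. TNC, a hexameric glycoprotein of remodelling matrix, had 0.10 at 6 h and −0.25 at 3 h, and FN1 had means of 0.11 and 0.03. These 3 glycoproteins were all positive at 6 h, but TNC and FN1 lay well within 2 within-gene SDs of 0.

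Subtracting the 3 h ratio from the 6 h ratio gave a change of 1.5-fold or more in 3 of 38 genes, against 5.75% of all named genes. All 3 were positive, a side on which 3.05% of all genes lay, and none was negative, a side on which 2.7% lay. They were POSTN at 0.77, COL4A6 at 0.665 and COL6A2 at 0.63. All 3 also lay beyond 2 within-gene SDs of a 1-probe difference, 0.599, as did 5.53% of all named genes. COL4A6 rested on 2 probes, whose differences were 1.18 and 0.15. The next on the positive side were COL19A1 at 0.44, LOXL2 at 0.40 and LAMB4 at 0.38. On the negative side stood LOX at −0.58, just short of 1.5-fold, then COL26A1 at −0.54, COL6A3 at −0.43, COL14A1 at −0.35, COL4A3 at −0.25 and LAMC3 at −0.20. The laminins were positive in 9 of 10, with a median of 0.145, while 46.9% of all named genes were positive. All 10 lay between −0.20 and 0.38, within 1.5-fold. The collagens were split, with 9 positive and 11 negative of 21 and a median of −0.01, and all named genes had a median of −0.01. Both ratios may share 1 control preparation, which the labels do not settle.

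**Figure D4:**
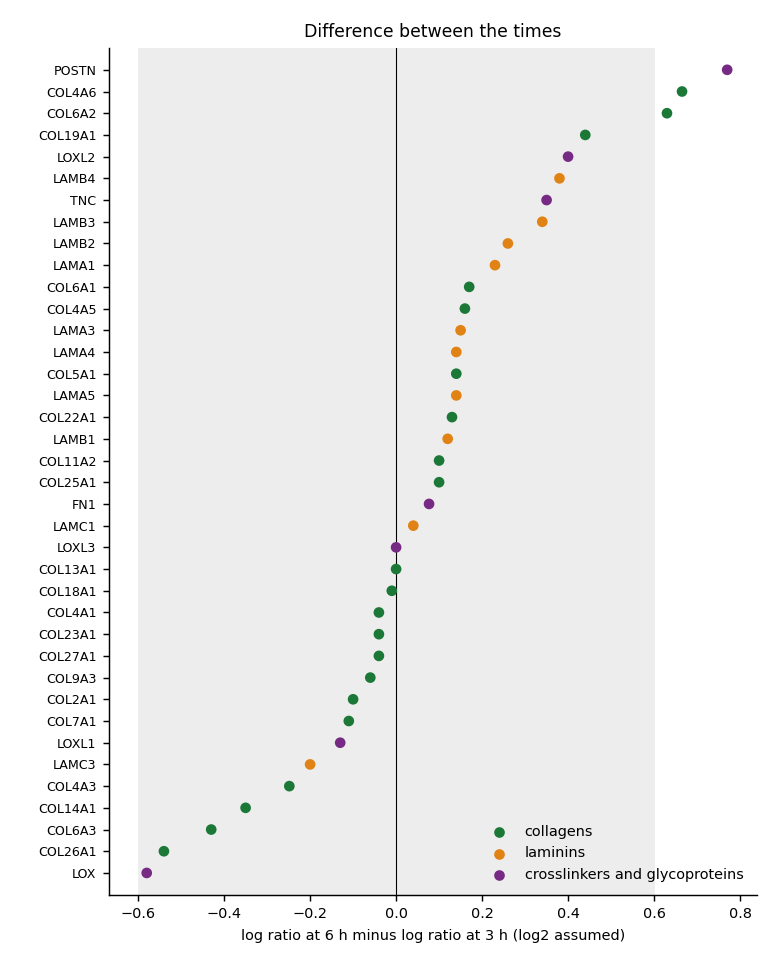
Log ratio at 6 h minus log ratio at 3 h (x axis, log2 units assumed) for the 38 genes with both values, sorted; the grey band spans 2 within-gene SDs of a 1-probe difference. POSTN, COL4A6 and COL6A2 lie outside the band at 0.77, 0.665 and 0.63, and LOX is lowest at −0.58.

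The promoters of POSTN, COL6A2 and LOX are shown because these genes stood at or near the ends of that order. They are the 250 bases before the first-listed start in RefSeq (GRCh38.p14), at chr13:37598769-37599018 on the minus strand for POSTN, chr21:46097862-46098111 on the plus strand for COL6A2 and chr5:122078260-122078509 on the minus strand for LOX. Capitals mark the TATA box by the letters TATAAA, the GC box GGGCGG and the AP-1 site TGANTCA, on either strand.
POSTN: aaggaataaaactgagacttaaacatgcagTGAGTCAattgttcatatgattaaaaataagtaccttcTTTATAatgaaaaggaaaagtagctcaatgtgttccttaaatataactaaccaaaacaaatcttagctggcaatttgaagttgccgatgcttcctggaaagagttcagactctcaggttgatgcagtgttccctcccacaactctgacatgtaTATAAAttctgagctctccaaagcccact
COL6A2: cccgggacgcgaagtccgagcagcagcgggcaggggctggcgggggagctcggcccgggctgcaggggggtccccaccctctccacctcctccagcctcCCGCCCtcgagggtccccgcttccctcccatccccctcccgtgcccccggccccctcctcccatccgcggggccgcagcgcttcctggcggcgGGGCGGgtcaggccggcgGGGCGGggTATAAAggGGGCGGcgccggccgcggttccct
LOX: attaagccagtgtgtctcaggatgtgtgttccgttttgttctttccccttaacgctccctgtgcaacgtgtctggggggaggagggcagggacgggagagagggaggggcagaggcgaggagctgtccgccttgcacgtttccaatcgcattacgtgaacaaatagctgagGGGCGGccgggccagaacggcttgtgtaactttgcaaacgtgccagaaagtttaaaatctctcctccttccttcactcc
POSTN has a TATA box beginning 29 bases before the start, another 182 bases before it and an AP-1 site 220 bases before it, and no GC box. COL6A2 has a TATA box 32 bases before the start and 4 GC boxes, and LOX has 1 GC box. GC content was 36.4% in POSTN, 79.6% in COL6A2 and 55.2% in LOX. COL4A6, which stood between POSTN and COL6A2 in the order of differences, is not shown here and has none of these motifs. Of 41 genes of the group, 31 had a promoter in the table used. A GC box occurred in 18 of these 31 (58.1%), against 61.0% of the 8872 measured named genes with a promoter and 42.3% of all 27305 promoters in the table. A TATA box occurred in 4, against 8.12% of measured genes and 11.1% of all promoters, and an AP-1 site in 2, against 4.84% and 6.60%. GGAATG, the core bound by TEAD factors, occurred in 1, against 9.86% of measured genes and 11.9% of all promoters, and the CArG box bound by SRF in 0, against 1.24% and 1.14%. These matches are descriptions of letters and not of binding.

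Other matrix genes were counted from lists chosen by function. Of 22 measured genes that modify and process collagen, 10 were positive and 11 negative at 6 h (median −0.005), and 10 positive and 12 negative at 3 h (median −0.04). ADAMTS2, the protease that removes the amino-terminal propeptide of fibrillar collagens, had −0.94 at 6 h and −0.29 at 3 h. TLL1, a relative of the carboxy-terminal propeptide protease BMP1, had −0.61 and 0.22. ADAMTS3, a relative of ADAMTS2, had −0.18 and −0.51. The prolyl hydroxylase gene P4HA1 had 0.39 and 0.47, and the lysyl hydroxylase gene PLOD2 had 0.33 and 0.44. ADAMTS2 and TLL1 were the 2 genes of 22 (9.09%) past 1.5-fold at 6 h, a share near the 9.86% of all named genes, and none of 22 was at 3 h, against 9.36%.

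Receptors for collagen and laminin were all within 1.5-fold, from −0.31 to 0.26 over 13 genes at 6 h and from −0.41 to 0.36 over 14 at 3 h. Past that size lay 9.86% of all named genes at 6 h and 9.36% at 3 h, so a count of 0 among so few genes says little. The integrin gene ITGA6, of laminin receptors, had 0.21 at 6 h and −0.26 at 3 h. ITGB1, the β subunit that most of these receptors share, had 0.17 and 0.16. The collagen receptor gene ITGA2 had −0.16 and −0.41 and ITGA11 had 0.10 and 0.32. ITGAV, of receptors for fibronectin and vitronectin, had 0.26 and 0.36. ITGB4, of hemidesmosomes, had −0.30 and −0.295, and the laminin receptor gene BCAM had −0.31 and −0.23. Partners of laminin and collagen IV in basement membranes had 5 positive and 3 negative of 8 at 6 h, and 3 positive and 5 negative at 3 h. At each time 1 of the 8 was past 1.5-fold. NTN4, a netrin that binds laminin γ chains, had 0.64 at 6 h and −0.35 at 3 h, which differ by 0.99. NID1, which links laminin to collagen IV, had 0.02 and −0.41, and the perlecan gene HSPG2 had 0.25 and 0.09. FREM2 had −0.12 at 6 h and −0.78 at 3 h.

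Matrix proteases and their inhibitors lay mostly on the negative side, with 11 of 14 negative at 6 h (median −0.295) and 15 of 19 at 3 h (median −0.18). Of all named genes, 51.5% were positive at 6 h and 51.3% at 3 h. Past 1.5-fold lay 2 of the 14 at 6 h, against 9.86% of all named genes. At 3 h it was 6 of the 19, with 3 on each side, against 9.36%. The 3 on the positive side, MMP13, MMP3 and MMP12, had a value at 3 h only. The counts at 6 h and 3 h therefore cover different genes. MMP2, a gelatinase, had −0.77 and −0.73, the secreted protease gene ADAMTS1 had −0.80 and −0.51, and MMP7 had −0.58 and −0.92. MMP13, a collagenase, had 1.12 at 3 h and no value at 6 h, as MMP3 at 0.85 and MMP12 at 0.84 did. TIMP3, an inhibitor bound to the matrix, had −0.50 and −0.31. Genes of elastic fibres and small proteoglycans had medians of −0.045 over 14 genes at 6 h and −0.03 over 13 at 3 h. MFAP5, a microfibril component, was the highest there at 0.91 and 1.41. It was the 1 gene past 1.5-fold, of 14 at 6 h and of 13 at 3 h. The fibulin gene FBLN2 had −0.40 and −0.23, the biglycan gene BGN −0.32 and −0.15, and the fibrillin gene FBN2 −0.08 and −0.15. Of other glycoproteins, 6 of 9 were negative at 6 h and 6 of 11 at 3 h, with 3 and 1 past 1.5-fold. Among them, THBS4, a thrombospondin, had 0.73 at 6 h and 0.51 at 3 h, and MATN3, a cartilage matrilin, had −0.75 and −0.73. VTN, the vitronectin gene, had −0.61 and −0.32, and TNXB, a tenascin gene, had −0.51 and −0.41.

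**Figure D5:**
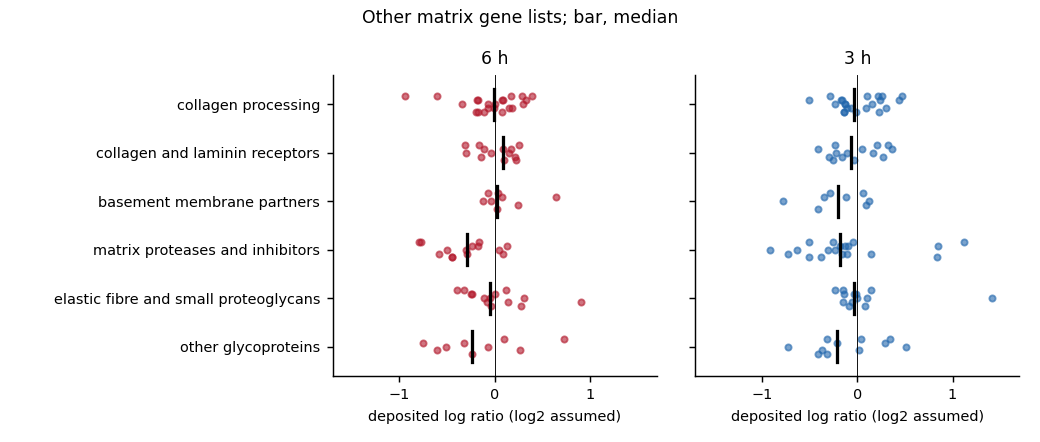
Deposited log ratios (x axis, log2 units assumed) of the genes in 6 other matrix lists at 6 h (left) and 3 h (right), with 1 point per gene and a black bar at the median. The proteases and inhibitors have the lowest median at 6 h, −0.295, and MFAP5 is the highest point at 3 h, 1.41.

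Among genes with a probe, those without a value made up a larger share of the group than of all named genes. Of the 52 genes of the group with a probe, 11 (21.2%) had no value on either array, against 11.2% of 12445 named genes with a probe. They were COL1A2, COL3A1, COL8A2, COL9A1, COL10A1, COL11A1, COL12A1, COL16A1, COL21A1, LAMA2 and LOXL4. The sources used here do not give the filter that removed spots, so a missing value is neither a low level nor an absence. A further 12 genes had no probe in the annotation used here, among them COL4A2, COL4A4, COL5A2, COL5A3, COL6A5, COL6A6, COL15A1, COL17A1, COL20A1, COL24A1 and COL28A1. In that annotation 10872 of 24267 probes had no symbol, so a gene without a listed probe may still be on the array.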

How the data were processed

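Each of 2 dual-colour arrays compared 293T cells treated with Y27632 with untreated cells. Per the labels' protocols, RNA was extracted with ISOGEN, amplified with an amino allyl kit and coupled to cyanine dyes. The deposited table held 1 log ratio per probe, used here as log2, for 24267 probes. Values had 2 decimals, and each array's median was 0. The sources used here do not state the background correction, normalization, spot filter, log base or numerator. One SD of all probes at 3 h would be a 2.39-fold difference in base 10 and is 1.30-fold in base 2. Spot intensities were not used here; precision is limited by the number of arrays.

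In the platform annotation 13395 probes had 1 symbol, 0 had several and 10872 had none. Against the RefSeq gene table (GRCh38.p14), 10822 symbols were current, 2446 had a unique synonym and were renamed, and 127 ambiguous ones were kept. A gene was the mean of its probes (Python 3.11.15, pandas 2.3.3, numpy 2.4.6). With 1 array per time no test was made. Genes were counted at 1 log unit and at 1.5-fold, beside all named genes. The code for averaging and counting was tested on simulated data. Its changes were larger than any in the group, and its noise was smaller than the SD within genes. That run checks the code and not the error of the values.

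The group's members and the gene lists were chosen with earlier results of these data known. The rule for genes given in full took those at or beyond 1 log unit, the 6 highest and 6 lowest at each time and in the difference, those with several probes, chains of 1 molecule, lysyl oxidases and glycoproteins, and, of other lists, members farthest from 0. ITGA6, ITGB1, TIMP3, MMP12 and the remaining collagens and laminins were named for their roles after their values were seen. Alternatives were the median of probes, the probe farthest from 0, centring on all named genes, symbols as listed, genes or probes with both values, natural logarithms and the turned sign.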

Additional observations from a re-analysis of the deposited data

Results flagged for a closer look

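COL4A6 had means of 0.245 at 6 h and −0.42 at 3 h, on opposite sides of 0 and 1.5-fold or more apart, a difference of 0.665. The difference was not tested, since each time has 1 array. Of 38 genes of the group with both values, this was 1 (2.63%), against 392 of 10469 named genes (3.74%). The difference was 1.18 for probe H300016418 and 0.15 for probe opHsV0400005788. LOX was also on opposite sides of 0 and missed the size at −0.58.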

How the results depend on the processing

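The group's median ranged from −0.05 to −0.01 at 6 h, from −0.16 to −0.11 at 3 h and from 0.10 to 0.14 for the difference over the main setting and 7 alternatives. Counts past a size were less stable, since they were small. For natural logarithms and for the probe farthest from 0, the share of all named genes past a size is not given here. Those counts are therefore not a result about the group. Natural logarithms enlarge the ratios of all genes by the same factor. At 1.5-fold in place of 2-fold, the counts of 0 became 4 positive and 3 negative at 6 h, 1 negative at 3 h and 3 positive for the difference. With natural logarithms, 1 gene (POSTN) was past 2-fold on the positive and 1 (COL9A2) on the negative side at 6 h, and 1 (POSTN) in the difference. The 1.5-fold counts were then 6 positive and 5 negative at 6 h, and 1 positive and 4 negative at 3 h. In the difference they were 4 positive and 3 negative. With the probe farthest from 0, 5 genes were past 1.5-fold on the positive side at 6 h. At 3 h it was 1 gene, COL4A3 at 0.87. In the difference, COL4A6 at 1.18 and COL4A3 at −1.06 were then past 2-fold, 1 on each side, COL4A3 with different probes at each time, and 1 was past 1.5-fold on the negative side. Over probes measured on both arrays, COL4A3 had −0.325 at 3 h and a difference of 0.15, because the probe at 0.87 is left out. Medians of probes, centring and symbols as listed moved none of these counts by over 1.5 times. With the sign turned, every positive value is negative and the reverse, at the same size. No paired analysis was possible because each time has 1 array. No replicate could be left out for the same reason.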
